A study of Mus musculus with 12 samples.

Results

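The genes described here are 9 of those that encode the membrane skeleton of the mouse red cell: Sptb, Ank1, Epb41, Epb42, Add1, Add2, Add3, Tmod1 and Slc4a1. They were chosen by symbol for what their proteins do, and each is 1 of the 24107 gene rows of an RNA-seq expression table. All 9 reached the level required for testing, FPKM of at least 1 in at least 3 of the 12 libraries. FPKM counts sequenced fragments scaled for gene length and library depth, so it can be compared between genes of different length.

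The study followed the conversion of megakaryocyte-erythroid progenitors (MEP) into leukemia-initiating cells. It holds 4 groups of 3 libraries, all from C57BL/6 mice. Control MEP (Ctrl-MEP) and control marrow (Ctrl-Bulk, unselected bone marrow cells) came from wild-type mice. Leukemic MEP (L-MEP) and GFP+ marrow (Prdm16s-Bulk), both of genotype Prdm16s, were sorted from recipient mice with leukemia. Prdm16s is the short form of the transcriptional regulator Prdm16, and in the marrow group GFP marks the cells that were kept. GFP+ marrow therefore differs from control marrow in being selected as well as in genotype, and these cannot be told apart. In both populations genotype also goes with coming from a recipient mouse with leukemia, and these cannot be told apart either. The labels give no age. Since they leave unsaid whether each library is a different mouse, a p-value here is set against differences among libraries that may be technical.

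The red cell membrane rests on a net of spectrin, whose beta chain is encoded by Sptb. Ankyrin (Ank1) and the protein encoded by Epb42 tie that net to the anion exchanger Slc4a1 in the membrane. At the other attachment point, short actin filaments capped by tropomodulin (Tmod1) and adducin (Add1, Add2, Add3) are joined to spectrin by the protein encoded by Epb41. Most of these proteins have relatives that build the equivalent net in cells outside the red lineage, and inherited loss of Ank1, Sptb, Epb42 or Slc4a1 causes hereditary spherocytosis.

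Depth and cell content differed between libraries. Whole reads recovered from the FPKM values numbered 6713052 to 9703495 in 10 libraries, 571480 in leukemic MEP replicate 3 and 1148992 in GFP+ marrow replicate 2. Gata1, a defining regulator of the MEP, was at 289 to 335 FPKM in control MEP against 37.7 to 242 in leukemic MEP. Of 15 erythroid maturation genes, the mean log2(FPKM + 1) was 6.12 to 6.49 in control MEP, 3.89 to 4.95 in leukemic MEP, and 6.87 to 7.07 in control marrow against 3.32 to 3.95 in GFP+ marrow. Their summed level was 11500 to 13300 FPKM in control MEP, 639 to 3120 in leukemic MEP, 5640 to 7830 in control marrow and 316 to 982 in GFP+ marrow, and none was at 0 throughout a group. Not all of the 15 were lower in leukemic MEP, where 9 fell, 1 rose and 5 did not pass. In marrow 14 fell and 0 rose. The gene that rose in MEP was the globin gene Hbb-bs, from 29.2 ± 32.1 to 741 ± 660 FPKM (SD, n = 3, limma adjusted p = 0.0127). The means of Hba-a2 (24.7 to 114) and Bpgm (10 to 14.7) also went up, without passing. Car1 and Car2 had the largest means of the list in control MEP, 5750 and 4800 FPKM. Of 13 granulocyte genes, the summed level was 27.7 to 409 FPKM in control MEP, 77700 to 94900 in control marrow and 93000 to 133000 in GFP+ marrow. In leukemic MEP it ran from 1030 to 101000 FPKM, with replicate 3 at a mean log2 level of 11.74 against 4.97 and 5.67 in replicates 1 and 2. Leukemic MEP replicate 3 thus stood with the marrow libraries for these genes. Replicates 1 and 2 of both Prdm16s groups, 4 libraries in all, carried Xist, and the other 8 carried Y-linked reads. All control libraries were among those 8, so the Xist pattern is partly confounded with genotype.

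Between leukemic and control MEP, 5 members fell, 2 rose and 2 did not pass the test (limma, Benjamini-Hochberg adjusted p below 0.05 over 11462 genes). Among all genes tested 26% passed, 12.3% lower and 13.7% higher. Sptb, Ank1, Epb42, Add1 and Add2 were lower, and Add3 and Tmod1 were higher. Between GFP+ and control marrow 5 members fell, Sptb, Ank1, Epb42, Add2 and Slc4a1, and none rose, where 9.05% of all genes passed, 6.03% lower and 3.02% higher. The median log2 change of the 9 members was -0.79 in MEP and -1.71 in marrow, against 0.02 and -0.05 for all genes tested. Without overlap between the groups, 5 members lay lower and 2 higher in leukemic MEP, where 19.7% and 21.1% of all genes do, and 6 lay lower and none higher in GFP+ marrow, where 19.6% and 17.6% do. Slc4a1 reached 1 FPKM in control marrow alone, Tmod1 in every library of leukemic MEP and in scattered others, and Sptb and Epb42 in control libraries alone. Genes that pass through the group in which they are high are bound to differ, so these counts describe the members and support nothing further. These are bulk libraries, in which fewer cells of a type and less RNA per cell cannot be told apart. Without leukemic MEP replicate 3 the counts were 7 members in MEP and 6 in marrow, where Add1 was added, and without both shallow libraries they were 7 and 6, where Tmod1 was added.

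**Figure D1:**
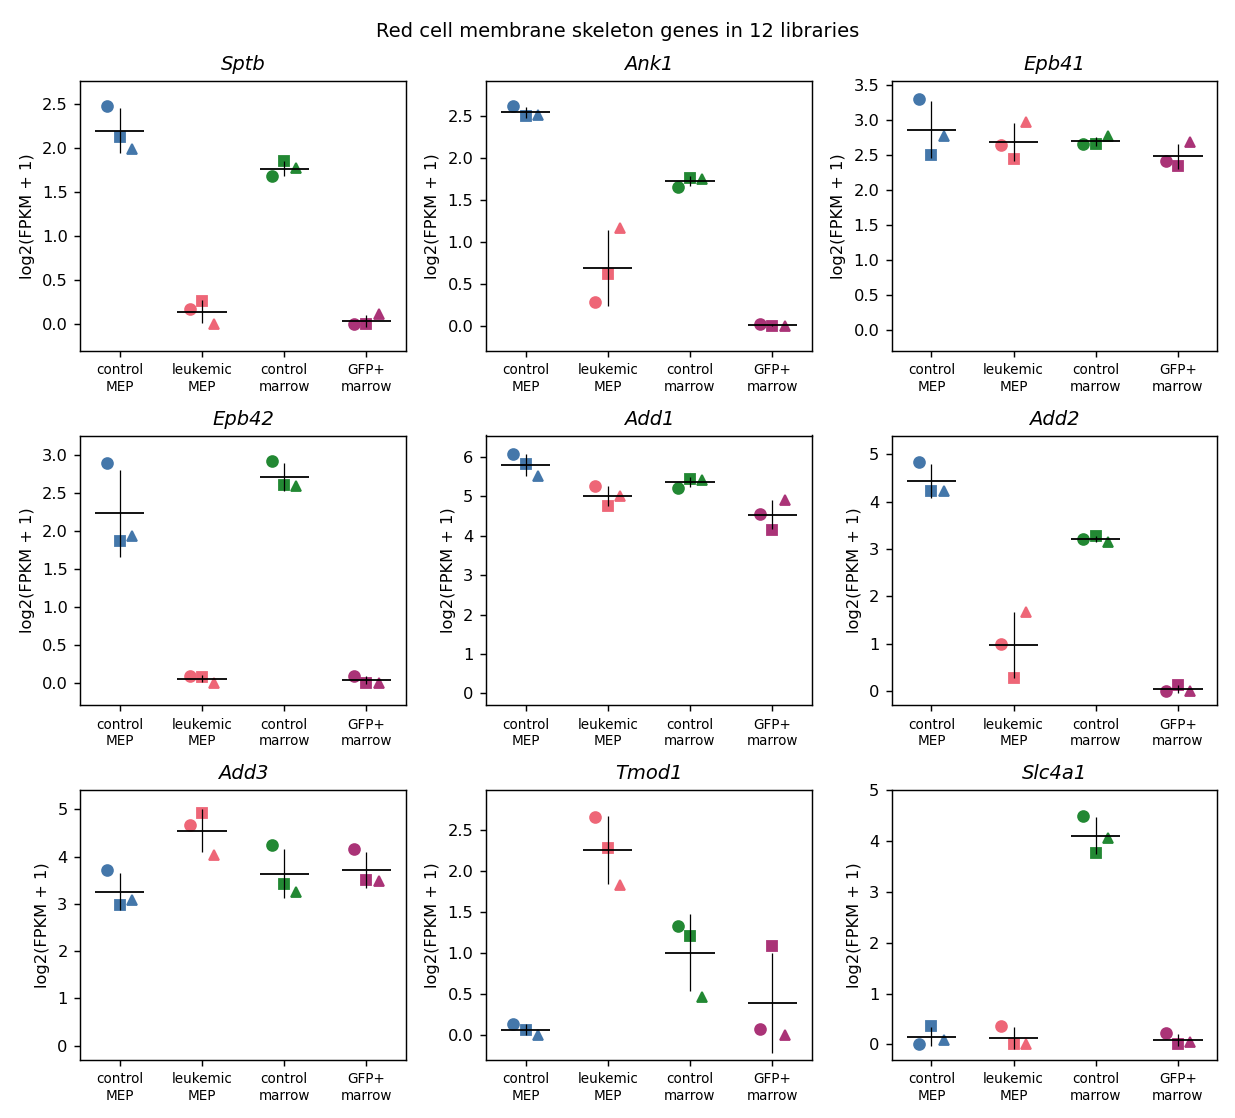
Level of each of the 9 members as log2(FPKM + 1) on linear axes that differ between panels, with 1 point per library (circle, square and triangle for replicates 1, 2 and 3), lines for the group mean and vertical bars for the SD. Sptb, Ank1, Epb42 and Add2 are low in both Prdm16s groups, Tmod1 is highest in leukemic MEP and Slc4a1 is high in control marrow only.

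The beta chain of red cell spectrin was among the members that fell in both populations. Sptb (chromosome 12, 76580488 to 76710547, minus strand, GRCm38) had 4.58, 3.37 and 2.96 FPKM in control MEP replicates 1 to 3 and 0.127, 0.194 and 0 in leukemic MEP, where these values rest on 17, 19 and 0 reads. In control marrow it had 2.2, 2.61 and 2.4 FPKM, and in GFP+ marrow 0, 0 and 0.0886, the last being 9 reads. Every control library was above every Prdm16s library. The log2 change was -2.05 ± 0.24 (SE, n = 3 per group) in MEP, with an adjusted p of 8.1e-05 (limma), and -1.73 ± 0.24 in marrow, with an adjusted p of 0.000931. These changes are on the log2(FPKM + 1) scale, as are all those below, which understates the change of genes near 1 FPKM. At the depth of leukemic MEP replicate 3, 3 reads of Sptb would have read as 0.419 FPKM, which is the limit that its count of 0 allows. Such limits cover counting error only, since amplified reads are not independent molecules.

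Most of the beta-spectrin level in leukemic MEP came from another gene. Sptbn1, which encodes the beta spectrin found in most tissues, had a mean of 0.411 ± 0.0404 FPKM (SD, n = 3) in control MEP and 9.51 ± 5.72 in leukemic MEP, a log2 change of 2.77 ± 0.34 (limma adjusted p = 0.000115). Sptb held 88.3 ± 2.19% of the summed beta-spectrin FPKM in control MEP, 1.6 ± 1.48% in leukemic MEP, 21.6 ± 4.69% in control marrow and 0.17 ± 0.294% in GFP+ marrow. Sptbn1 held 10.3% in control MEP and 94.5, 77.3 and 99.6% in the other groups in that order. In marrow the log2 change of Sptbn1 was 0.8 ± 0.34 and did not pass (adjusted p = 0.17), and its changes in the populations differed by 1.97 (adjusted p = 0.0357).

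**Figure D2:**
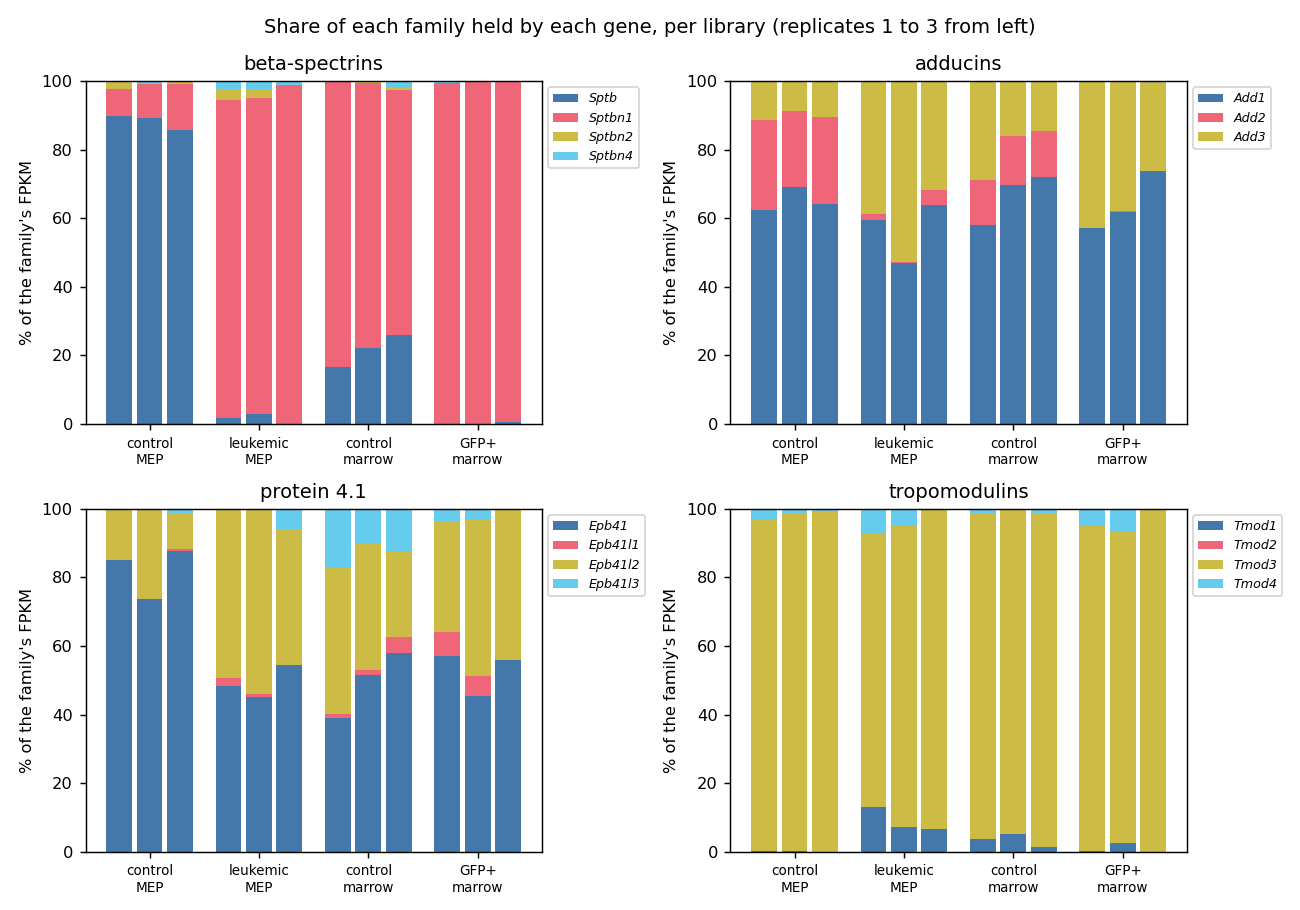
Share of summed FPKM (percent) held by each gene of a set, as 1 stacked bar per library. The sets are the beta spectrins, the adducins, Epb41 with Epb41l1, Epb41l2 and Epb41l3, and the tropomodulins. Other relatives of Epb41, among them Epb41l4b, are not in the bars. From control to leukemic MEP the mean share of Sptb goes from 88.3% to 1.6% and that of Add2 from 24.6% to 2.12%.

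The genes that couple spectrin to the anion exchanger, Ank1 and Epb42, both fell. Ank1 (chromosome 8, 22974844 to 23150497, plus strand), the red cell ankyrin, had 5.16, 4.64 and 4.7 FPKM in control MEP against 0.211, 0.522 and 1.25 in leukemic MEP. Control marrow had 2.14, 2.39 and 2.36 FPKM of Ank1, and GFP+ marrow 0.0163, 0 and 0, which is 1 read in 3 libraries. No leukemic library reached the lowest control library in either population. The log2 change of Ank1 was -1.86 ± 0.27 in MEP (limma adjusted p = 4e-04), and in marrow it was -1.71 ± 0.27, with an adjusted p of 0.00186. Within leukemic MEP the highest value, 1.25 FPKM, was that of replicate 3 and rested on 7 reads.

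Epb42 (chromosome 2, 121017891 to 121037072, minus strand) encodes a protein that binds both ankyrin and the anion exchanger. Its levels were 6.44, 2.64 and 2.83 FPKM in control MEP against 0.0563, 0.0512 and 0 in leukemic MEP, that is 3, 2 and 0 reads. Control marrow held 6.61, 5.1 and 5.07 FPKM, and GFP+ marrow 0.064, 0 and 0. Both Prdm16s groups were near 0, and control MEP replicate 1 stood above replicates 2 and 3. The counts of 0 in the shallow libraries set wider limits. There 3 reads of Epb42 would have read as 1.05 FPKM in leukemic MEP replicate 3 and 0.581 in GFP+ marrow replicate 2. In MEP Epb42 fell by 2.18 ± 0.3 on the log2 scale, with a limma adjusted p of 0.000265, and in marrow by 2.68 ± 0.3, with an adjusted p of 0.000172. Its fall did not differ detectably between the populations (difference 0.5, adjusted p = 0.592).

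The membrane anchor was at or near 0 in both MEP groups. Slc4a1 (chromosome 11, 102348824 to 102366203, minus strand), the chloride-bicarbonate exchanger of the red cell, had 21.4, 12.6 and 15.7 FPKM in control marrow, from 727, 529 and 563 reads. GFP+ marrow had 0.168, 0 and 0.0259 FPKM of it. Control MEP had 0, 0.296 and 0.0614 FPKM and leukemic MEP 0.296, 0 and 0, with 15 reads at most in any of these 6 libraries. Control marrow thus stood above all 9 other libraries. At the depth of leukemic MEP replicate 3, 3 reads of Slc4a1 would have read as 1.1 FPKM. Slc4a1 fell by 4.02 ± 0.27 on the log2 scale in marrow (limma adjusted p = 3.75e-06), and in MEP the difference was -0.03 ± 0.27 (adjusted p = 0.952). In control MEP, then, Epb42 and Ank1 were present at 3.97 ± 2.14 and 4.83 ± 0.284 FPKM (SD, n = 3) with Slc4a1 at 0.119 ± 0.156. Control MEP and control marrow differed by 3.95 on the log2 scale for Slc4a1, lower in MEP (adjusted p = 2.53e-06). Of 10 monocyte and macrophage genes, the summed level was 2170 to 2270 FPKM in control marrow, 583 to 1030 in GFP+ marrow, 6.31 to 17.7 in control MEP and 36.4 to 1440 in leukemic MEP. The part of these cells, or of the erythroid cells counted above, in the level of Slc4a1 was not tested.

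Another anion transporter of the same family rose in both populations. Slc4a8, a sodium-driven chloride-bicarbonate exchanger, had a mean of 0.0252 ± 0.0339 FPKM in control MEP, 3.24 ± 2.25 in leukemic MEP, 0.961 ± 0.136 in control marrow and 10.2 ± 0.743 in GFP+ marrow (SD, n = 3). Its log2 rise was 1.93 ± 0.33 in MEP, with a limma adjusted p of 0.00117, and 2.52 ± 0.33 in marrow, with an adjusted p of 0.000598. Slc4a1 made up 67.5% of the summed SLC4 family FPKM in control marrow and 0.331% in GFP+ marrow, and Slc4a8 4.04% and 54.8%.

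The adducins cap the fast-growing end of actin filaments and recruit spectrin to them, and in red cells they work as a pair of alpha (Add1) and beta (Add2) chains, with gamma (Add3) the usual partner elsewhere. Each of the 3 genes has an entry in the RefSeq promoter table (GRCm38.p6). The 250 bases before the annotated start of Add1 (chr5:34573414-34573663, plus strand), of Add2 (chr6:86028431-86028680, plus strand) and of the first start of Add3 (chr19:53140193-53140442, plus strand) are printed 5′ to 3′ because Add1 and Add2 fell and Add3 rose in MEP. The same window of Sptb (chr12:76710548-76710797, minus strand) is printed because that gene fell with Add2. Capitals mark matches on either strand to CCNCNCCC, the core of the sites of Klf1 and its relatives.

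Add1: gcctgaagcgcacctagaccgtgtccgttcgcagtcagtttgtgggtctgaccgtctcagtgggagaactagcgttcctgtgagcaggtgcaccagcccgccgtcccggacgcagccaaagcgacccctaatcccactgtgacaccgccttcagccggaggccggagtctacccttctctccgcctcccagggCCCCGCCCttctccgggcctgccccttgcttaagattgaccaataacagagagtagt

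Add2: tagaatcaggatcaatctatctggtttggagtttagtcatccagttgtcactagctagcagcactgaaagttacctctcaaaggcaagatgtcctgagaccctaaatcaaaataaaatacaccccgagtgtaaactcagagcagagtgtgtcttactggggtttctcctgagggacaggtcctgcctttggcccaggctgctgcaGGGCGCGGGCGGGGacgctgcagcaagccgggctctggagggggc

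Add3: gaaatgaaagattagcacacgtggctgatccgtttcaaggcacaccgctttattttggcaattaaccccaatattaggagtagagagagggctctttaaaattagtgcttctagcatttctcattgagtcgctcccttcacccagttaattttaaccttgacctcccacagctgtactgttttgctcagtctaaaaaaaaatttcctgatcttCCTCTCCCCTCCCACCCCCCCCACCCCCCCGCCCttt

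Sptb: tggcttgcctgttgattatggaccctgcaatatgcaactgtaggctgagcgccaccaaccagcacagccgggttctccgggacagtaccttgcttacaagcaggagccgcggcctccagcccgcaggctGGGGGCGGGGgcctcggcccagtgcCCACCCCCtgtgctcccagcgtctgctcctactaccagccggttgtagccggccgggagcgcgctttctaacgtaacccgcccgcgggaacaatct

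The window of Add1 holds 1 match to CCNCNCCC, that of Add2 2, that of Sptb 3 and that of Add3 7, where overlapping matches are counted apart. This motif is in 45.9% of the 32851 windows of the same length in the table, and 8 of the 11 windows of the 7 members listed hold it. AGATAA, a form of the site bound by Gata1, is in 9.99% of all windows and among the members only in that of Epb42. Of the 250 bases of the Epb42 window, 195 lie in annotated exons. All 250 do so in the Tmod1 window and in 1 window of Epb41. CAGNTG, the E-box, is in 44.8% of all windows and in 8 of the 11. CCGGAA, an ETS site, is in 12% of all windows and in none of the 11. Both strands were searched for each motif. The windows of the other starts of Add3 hold 4 and 0 matches to CCNCNCCC. A match is a description of letters and not of a site.

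On the log2(FPKM + 1) scale Add2 (chromosome 6, 86028681 to 86124409, plus strand) had the largest fall of the 9 members in MEP. The ratio of mean FPKM in control to leukemic MEP was 18.8 for Add2, and larger for Epb42 (111) and Sptb (34). Add2 had 27.9, 17.7 and 17.7 FPKM in control MEP against 0.991, 0.207 and 2.16 in leukemic MEP. Control marrow had 8.26, 8.65 and 7.82 FPKM, and GFP+ marrow 0, 0.0921 and 0, a single read. All 6 control libraries were above all 6 Prdm16s libraries. The fall was 3.46 ± 0.34 on the log2 scale in MEP (limma adjusted p = 2.36e-05) and 3.16 ± 0.34 in marrow (adjusted p = 0.000142). Among controls Add2 was higher in MEP than in marrow by 1.23 ± 0.34 (adjusted p = 0.0296), a call that was lost when any 1 of the 6 control libraries was left out.

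Add1 (chromosome 5, 34573664 to 34632308, plus strand) had the highest mean FPKM of the 9 members in every group. Its levels were 66, 55 and 45 FPKM in control MEP against 37.6, 26.1 and 31.2 in leukemic MEP, and 35.9, 42.5 and 41.9 in control marrow against 22.4, 16.8 and 28.8 in GFP+ marrow. In both populations the groups did not overlap. The log2 change was -0.79 ± 0.24 in MEP (limma adjusted p = 0.0295) and -0.82 ± 0.24 in marrow, where it did not pass (adjusted p = 0.0502). The marrow difference of Add1 passed in 8 of 24 alternatives, among them equal FPKM totals (adjusted p = 0.0222), quantile normalization (0.0422), voom (0.0472) and only the marrow groups in the fit (0.0384), and over all 24 the adjusted p ran from 0.00125 to 0.171. In MEP the adjusted p was 0.101 with a term for the Xist pattern, 0.101, 0.0765 and 0.0813 without control MEP replicate 1, control MEP replicate 2 and leukemic MEP replicate 2, 0.0674 after quantile normalization and 0.0721 with only the MEP groups in the fit.

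Add3 (chromosome 19, 53140443 to 53247399, plus strand) had 12.1, 6.91 and 7.46 FPKM in control MEP against 24.5, 29.3 and 15.5 in leukemic MEP, without overlap. It had 17.9, 9.79 and 8.53 FPKM in control marrow and 16.8, 10.3 and 10.2 in GFP+ marrow, with overlap. Add3 rose in MEP by 1.29 ± 0.34 on the log2 scale (limma adjusted p = 0.0165), and in marrow the difference was 0.07 ± 0.34 (adjusted p = 0.931). The test of the difference between those changes did not pass (1.22, adjusted p = 0.214). With a term for the Xist pattern the MEP change was 0.92 (adjusted p = 0.0734), and without control MEP replicate 2, control MEP replicate 3 or leukemic MEP replicate 2 the adjusted p was 0.0659, 0.0633 and 0.0508.

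As a share of the 3 adducins together, Add2 made up 24.6 ± 2.07% in control MEP, 2.12 ± 2.08% in leukemic MEP, 13.6 ± 0.493% in control marrow and 0.113% in GFP+ marrow. Add3 made up 10.2 ± 1.4%, 41.1 ± 10.7%, 19.8 ± 7.8% and 35.6 ± 8.52% in the same order. The mean share of Add1 was 65.2, 56.8, 66.5 and 64.3%, and in leukemic MEP replicate 2 Add3 held more, 52.7% against 46.9%. The 6 comparisons of a share between leukemic and control libraries gave exact permutation p-values from 0.1 to 0.9, of which 0.1 is the smallest possible, reached by Add2 in both populations and Add3 in MEP. The summed adducin level was 85.3 FPKM in control MEP against 55.8 in leukemic MEP.

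Epb41 (chromosome 4, 131923413 to 132075321, minus strand), which encodes the linker between spectrin and actin, passed the test in none of the comparisons. Control MEP had 8.92, 4.69 and 5.8 FPKM and leukemic MEP 5.29, 4.43 and 6.89, with 5.33, 5.32 and 5.83 in control marrow, and 4.35, 4.06 and 5.47 in GFP+ marrow. The ranges of the MEP groups overlapped, as did those of the marrow groups. The log2 change in MEP was -0.17 ± 0.27, with a 95% interval from -0.77 to 0.43 (limma adjusted p = 0.684), and in marrow it was -0.21 (adjusted p = 0.69). The interval leaves room for a change that this depth and n could not detect. Epb41 held 82.1% of the summed FPKM of Epb41 and its relatives Epb41l1, Epb41l2 and Epb41l3 in control MEP and 49.3% in leukemic MEP, where Epb41l2, a relative expressed in many tissues, held 17.3% and 47.6%. Epb41l2 is named after its values were seen, and its log2 change in MEP was 1.46 ± 0.32 (adjusted p = 0.00565).

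Tmod1 (chromosome 4, 46038935 to 46116032, plus strand), the tropomodulin that caps the slow-growing end of red cell actin filaments, was the member that rose most. It had 0.0983, 0.041 and 0 FPKM in control MEP, from 3, 1 and 0 reads, and 5.32, 3.84 and 2.55 in leukemic MEP, from 194, 103 and 5 reads. Control marrow had 1.51, 1.32 and 0.388 FPKM, and GFP+ marrow 0.0467, 1.13 and 0, of which 1.13 was 4 reads in a shallow library. Leukemic MEP stood above all other libraries, and the marrow groups overlapped.

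The rise of Tmod1 in MEP was 2.19 ± 0.36 on the log2 scale (limma adjusted p = 0.000952), and in marrow the difference was -0.62 ± 0.36 (adjusted p = 0.328). The difference between those changes was 2.81 ± 0.51 (adjusted p = 0.00814). Without the 2 shallow libraries, an alternative chosen after seeing the data, the marrow change was -0.97 (adjusted p = 0.0449). Of 14 megakaryocyte genes 13 could be tested, and 11 of them rose in MEP, where 13.7% of all genes did. The summed level of the 14 was 51.3 to 177 FPKM in control MEP, 416 to 6070 in leukemic MEP, 221 to 286 in control marrow and 334 to 634 in GFP+ marrow. Their mean log2 level was 1.23 to 2.2 in control MEP against 5.81, 5.46 and 3.81 in leukemic MEP replicates 1 to 3, and Gp6 alone was at 0 throughout leukemic MEP. Their part in the rise of Tmod1 was not tested. Tmod3, the widely expressed tropomodulin, rose in MEP by 1.0 ± 0.31 (adjusted p = 0.0332). Of the summed tropomodulin FPKM, Tmod1 made up 0.201 ± 0.174% in control MEP, 8.91 ± 3.64% in leukemic MEP, 3.31 ± 1.89% in control marrow and 0.846 ± 1.36% in GFP+ marrow (SD, n = 3).

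**Figure D3:**
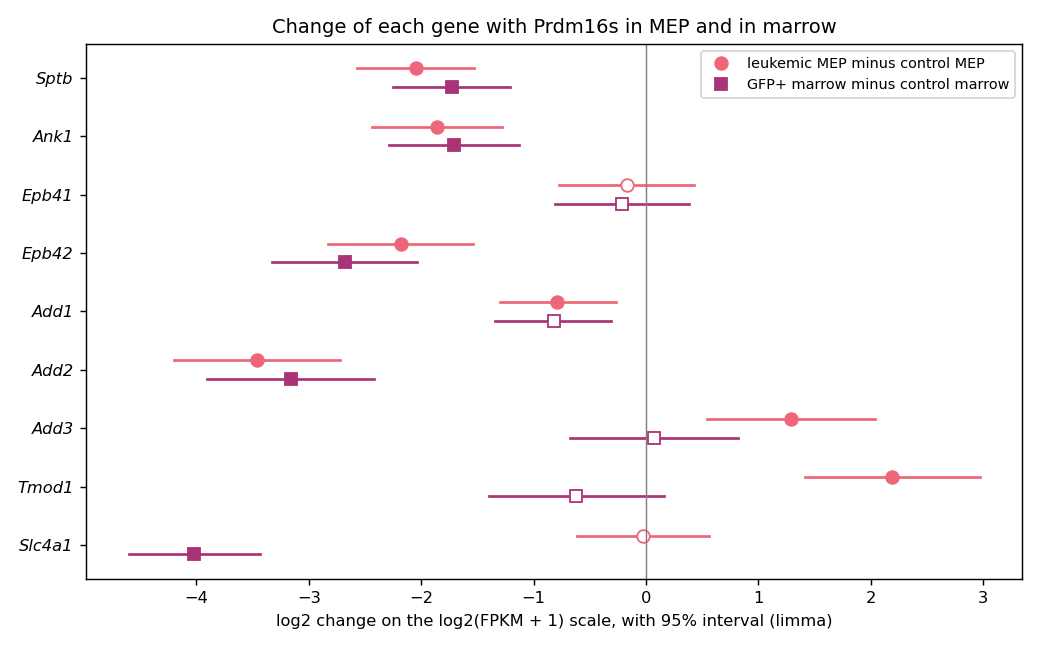
Log2 change of each member on the log2(FPKM + 1) scale, with 95% intervals from limma and called genes filled, for leukemic against control MEP and for GFP+ against control marrow. Sptb, Ank1, Epb42 and Add2 lie below 0 in both, Tmod1 is at 2.19 and -0.62, and Slc4a1 at -0.03 and -4.02.

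The order of the members by FPKM within a group shows how their proportions differed. In control MEP Add1 led at 55.3 FPKM, followed by Add2 at 21.1 and Add3 at 8.82, then Epb41, Ank1, Epb42 and Sptb between 6.47 and 3.64, whose ranges overlapped each neighbour's, and Slc4a1 and Tmod1 were last and overlapped. In leukemic MEP Add1 at 31.6 FPKM and Add3 at 23.1 overlapped and led, Epb41 at 5.54 and Tmod1 at 3.9 overlapped and followed, and Add2 was at 1.12. In control marrow Slc4a1 was second at 16.6 FPKM, and its range overlapped that of Add3 at 12.1. In GFP+ marrow Add1 at 22.7, Add3 at 12.4 and Epb41 at 4.63 FPKM led, and the other 6 members had means of 0.392 or less. Epb41 was separate from its neighbours. The lowest Add1 value and the highest Add3 value were both 16.8 FPKM when rounded. That Add1 value was from shallow replicate 2, where 1 read of Add1 is 0.224 FPKM.

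MEP and marrow of 1 genotype were also compared. Over 24 alternatives 1 to 5 members passed between the controls and 0 to 4 between the leukemic groups. Between control MEP and control marrow Add2 was higher and Slc4a1 lower, 2 of 9 members, where 15% of all genes passed, 2.63% higher and 12.3% lower. For Ank1 the difference of 0.82, control MEP minus control marrow, did not pass (limma adjusted p = 0.0578), but it passed in 12 of 23 alternatives, with adjusted p from 0.000679 to 0.274 over the 23. Between leukemic MEP and GFP+ marrow 1 member passed, Tmod1, higher by 1.87 ± 0.36 (adjusted p = 0.0213), where 3.05% of genes passed, 0.977% higher and 2.08% lower. That call was lost without leukemic MEP replicate 1 (adjusted p = 0.0889) or replicate 2 (0.0665), and without GFP+ marrow replicate 1 (0.0627) or replicate 3 (0.0544). It was also lost with only those groups in the fit (0.352) and with a pseudocount of 0.1 (0.0549). For the difference of the changes between populations, 4.89% of genes passed, 4.52% higher and 0.366% lower, and the members that did were Tmod1 and Slc4a1. For Slc4a1 the difference of 3.99 ± 0.38 (adjusted p = 0.000228) carries the marrow fall alone, since both MEP groups were near 0.

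Membrane proteins that sit on or beside this skeleton were examined as a list of 17 genes, all of which could be tested. In MEP 9 fell and 1 rose, with a median log2 change of -1.31, and in marrow 10 fell and none rose, with a median of -1.31. Among all genes tested 12.3% fell and 13.7% rose in MEP, and 6.03% fell and 3.02% rose in marrow. The same shares stand beside the lists of actin genes and paralogs below. Kel, a blood group protein, fell by 2.66 ± 0.29 on the log2 scale in MEP (limma adjusted p = 5.11e-05), and in marrow it fell by 3.89 (adjusted p = 9.15e-06). The water channel Aqp1 fell by 2.92 ± 0.44 in MEP (adjusted p = 0.000567) and 4.4 in marrow (adjusted p = 8.63e-05). The Rh protein Rhd fell by 5.33 ± 0.83 (adjusted p = 0.000686) and 5.91 (adjusted p = 0.00101). The glucose transporter Slc2a1 was the gene of this list that rose in MEP, by 2.76 ± 0.76 (adjusted p = 0.019), from 0.148 ± 0.0539 to 9.2 ± 9.52 FPKM (SD, n = 3).

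Genes for the actin filament of the junction were partly higher in leukemic MEP. Of 11 genes for actin, its capping proteins and tropomyosins, 9 could be tested, 4 rose in MEP and none fell, with a median of 0.9, and in marrow none passed, with a median of 0.06. Tpm4, a tropomyosin, rose by 2.97 ± 0.6 on the log2 scale (limma adjusted p = 0.00383), Tpm3 by 1.01 ± 0.22 (adjusted p = 0.00512) and the actin gene Actg1 by 1.37 ± 0.3 (adjusted p = 0.00566). Tmod3, given above, was the fourth, and it is counted again among the paralogs below. The difference between the MEP and marrow changes passed for Tpm4 (4.13 ± 0.86, adjusted p = 0.0168), and for Actg1 and Tpm3 it did not (adjusted p = 0.107 and 0.113). Of the 25 paralogs of the members, 13 could be tested, 6 rose in MEP and 1 fell, with a median of 0.97, and in marrow 1 rose and 1 fell. Epb41l4b, of the Epb41 family, rose in MEP by 3.02 ± 0.53 (adjusted p = 0.0015), and its relative Epb41l5 fell by 0.89 (adjusted p = 0.0488). In marrow the paralog that fell was Epb41l3, by 1.08 (adjusted p = 0.0383), and the one that rose was Slc4a8.

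**Figure D4:**
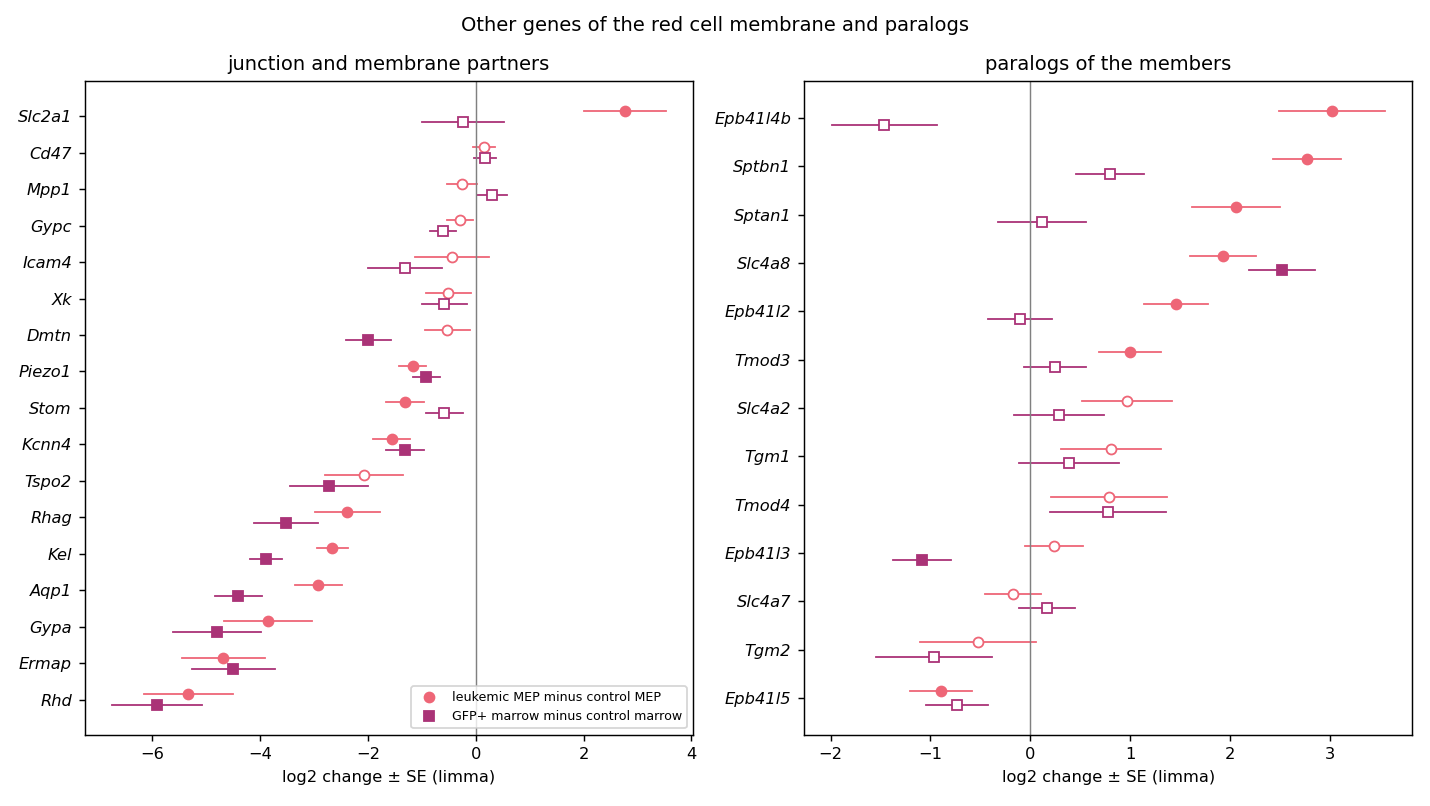
Log2 change (log2(FPKM + 1) scale, limma, bars for the SE) of every tested gene in the lists of membrane partners and paralogs, in MEP (circles) and in marrow (squares), with called genes filled. In MEP the partners have a median of -1.31 and the paralogs a median of 0.97.

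Regulators of red cell genes were measured for comparison with the members. Of 15, 4 fell and 1 rose in MEP, where 12.3% of all genes tested fell and 13.7% rose. In marrow 6 fell and 1 rose, where 6.03% and 3.02% of all genes did. Klf1, an activator of many red cell genes, fell by 2.34 on the log2 scale in MEP (limma adjusted p = 0.0236) and 3.14 in marrow (adjusted p = 0.0123). E2f4 fell by 1.19 (adjusted p = 0.00286) and 1.0 (adjusted p = 0.0185) in the same order. Gfi1b fell by 2.36 (adjusted p = 0.00552) and 3.73 (adjusted p = 0.000863). Nfe2 rose by 1.73 (adjusted p = 0.000752) and 1.12 (adjusted p = 0.024). The part of these regulators in the members' changes was not tested.

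The genes whose profile over the 12 libraries was most like each member's were found among 6601 genes with a mean of at least 10 FPKM in some group, by the root-mean-square difference of centred log2 values. For Ank1 they were Traip (0.22), Pigq and the transferrin receptor Tfrc (both 0.27). Add1 lay nearest Eif4g1 (0.14) and the replication helicase genes Mcm2 (0.16) and Mcm7 (0.18). Epb42 was nearest Fech, the last enzyme of haem synthesis, and Trim10 (both 0.52), then Slc16a10 (0.53). Sptb lay nearest Sqle (0.27), Cdc6 and Slc16a10 (both 0.29), and Add2 nearest Cttn (0.41), Spire1 and Il1rl1 (both 0.42). For Tmod1 they were Gata2 (0.46), Adgrg1 (0.48) and Orai2 (0.49), and for Add3 Vezf1 (0.24), Elf1 (0.31) and Erbin (0.32). Epb41 lay nearest Ogdh (0.08), Anapc2 and Baz1b (both 0.14). Slc4a1 had Cd209f (0.26), Cbr2 (0.33) and Cd86 (0.34) nearest. The scale compresses members at a few FPKM, so a small difference here does not mean a like fold change. From control to leukemic MEP Sptb fell 34-fold by mean FPKM, and Sqle went from 35.3 to 10.5 FPKM. From control to GFP+ marrow Ank1 went from 2.3 to 0.00545 FPKM and Traip from 18.5 to 5.34. A pattern shared with a member says nothing of shared function or control.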

How the data were processed

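RNA from sorted cells was amplified with Smart-seq2 and sequenced from Nextera XT libraries on a HiSeq2500, per the labels' protocols. The deposited table holds FPKM computed by the authors; CASAVA, bcl2fastq, STAR 2.5.3a, DESeq2 1.18.1 and mm10 are named in the submitters' processing notes, while for the annotation and counter the sources used here name nothing. Of 16728 genes above 0, 99.9% were whole reads over a gene length and a library denominator (tolerance 0.02), which gave 571480 to 9703495 reads per library.

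The test was limma 3.58.1 (R 4.3.3) with a mean-variance trend on log2(FPKM + 1), 4 groups in 1 fit (8 residual degrees of freedom), on 11462 genes (FPKM 1 or more in 3 libraries), with Benjamini-Hochberg adjustment over all of them and calls at 0.05. voom on the recovered reads, an alternative, called 3390 genes in MEP and 1914 in marrow. Other alternatives changed the pseudocount, filter, scaling, weights, groups fitted, sex term, block or libraries. All members were named. From each list, up to 3 called genes per direction with the smallest p in the MEP and marrow comparisons were named. Other genes named from the lists are to be read as chosen after their values were seen. Among them are Epb41l2, Tmod3, Gata1, Hbb-bs, Hba-a2, Bpgm, Car1 and Car2. A gene of the partner list is not reported here and is out of its counts. The members and lists were chosen with earlier results of these data known. Correlations of deviations between same-numbered libraries were over 0.1 in 4 of 18 pairs. For replicates 1 to 3 they were 0.5, 0.29 and 0.07 between the control groups. Between the Prdm16s groups they were 0.09, 0.22 and 0.15. Whether same-numbered libraries of a genotype share a mouse cannot be told from these values, and the main fit used no pairing. Positions are from GENCODE (GRCm38, the same assembly as mm10), and promoter windows from RefSeq (GRCm38.p6), which lists 7 of the 9 members. The fit was tested on simulated data.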

Additional observations from a re-analysis of the deposited data

Results flagged for a closer look

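For 2 members the change with Prdm16s differed between the populations by a test of the difference itself (the interaction term of limma, adjusted over 11462 genes). The change of Tmod1 in MEP minus its change in marrow was 2.81 on the log2 scale (adjusted p = 0.00814), with all 3 leukemic MEP libraries above all 3 control MEP libraries and overlapping marrow groups. The corresponding difference for Slc4a1 was 3.99 (adjusted p = 0.000228), with control marrow above every other library and both MEP groups at 0.296 FPKM or less.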

How the results depend on the processing

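In MEP the calls of Sptb, Ank1, Epb42, Add2 and Tmod1, in marrow those of Sptb, Ank1, Epb42, Add2 and Slc4a1, and for the difference of changes those of Tmod1 and Slc4a1 held under each alternative in which the gene was tested. The number of members called moved as follows. With a filter of FPKM of at least 5 in 3 libraries, which leaves fewer members tested, it was 4 in MEP, 3 in marrow, 0 between leukemic MEP and GFP+ marrow and 1 for the difference of changes. Between control MEP and control marrow it was 1 with a pseudocount of 0.1, 4 after quantile normalization, 5 with array weights, 4 with voom, 4 with only those groups in the fit and 4 without the 2 shallow libraries. Between leukemic MEP and GFP+ marrow it was 2 with a pseudocount of 0.1, 4 with array weights, 3 with voom and 0 with only those groups. With the pseudocount of 0.1 the members were Ank1 (limma adjusted p = 0.0441) and Add2 (0.0466), and Tmod1 was lost (0.0549). Leaving out 1 library gave 5 to 7 in MEP, 5 to 6 in marrow, 1 to 3 between controls, 0 to 1 between leukemic groups and 2 for the difference. With the replicate block the counts were 7, 5, 2, 1 and 2 and no member's call changed. The cause of these shifts was not tested.

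Signs turned only for values that did not pass. In MEP, Epb41 was 0.08 with the sex term and 0.05 without control MEP replicate 1, and Slc4a1 was 0.19 with array weights, 0.47 with voom, 0.08 without control MEP replicate 2, and 0.03 without leukemic MEP replicate 2, replicate 3 or the shallow libraries. In marrow, Epb41 was 0.04 with the sex term, and Add3 was -0.15 at equal totals, -0.29 with the sex term, and -0.03, -0.12 and -0.15 without control marrow replicates 2 and 3 and GFP+ marrow replicate 1. Between controls Epb41 was -0.06 without control MEP replicate 1. Between leukemic groups Sptb was -0.07 and Slc4a1 -0.14 after quantile normalization, Slc4a1 -0.09 and -0.01 without leukemic MEP replicate 1 and GFP+ marrow replicate 2, and Epb41 -0.01 without the shallow libraries. For the difference of changes, a pseudocount of 0.1 gave 0.05 for Sptb, 1.56 for Ank1 and 1.56 for Add2. voom gave 1.7, 3.27 and 3.84 for these, -0.13 for Epb41 and -0.06 for Add1. Ank1 was 0.06 without leukemic MEP replicate 1 and Add2 0.06 without replicate 2. Epb41 was -0.29 after quantile normalization, -0.13, -0.01, -0.1 and -0.03 without control MEP replicates 2 and 3, leukemic MEP replicate 3 and GFP+ marrow replicate 2, and -0.17 without the shallow libraries. Add1 was -0.1, -0.09, 0 and -0.15 without control MEP replicate 3, leukemic MEP replicate 1, control marrow replicate 2 and GFP+ marrow replicate 2, and -0.15 without the shallow libraries. Depth limits leukemic MEP replicate 3 most, where 1 read of Tmod1 is 0.511 FPKM. Over the libraries left out in turn, the values just given ran from -0.35 for Epb41 in MEP, to 0.37 for Add3 in marrow, to 0.34 for Epb41 between controls and to 0.11 for Slc4a1 between leukemic groups. For the difference they ran from -0.39 for Ank1 and -0.64 for Add2, and to 0.27 for Epb41 and 0.22 for Add1.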
